A study of Homo sapiens with 27 samples.

Results

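Histone genes encode the proteins around which nuclear DNA is wound. The 35 histone genes described here were taken from 15207 genes on a human expression array, as every gene whose symbol in the platform's probe table begins with an older histone stem (HIST followed by a cluster number, H1F, H2AF, H2BF, H3F) or its current form. Each gene was represented by its brightest probe over all arrays, and 46 of the 30968 probes on the array carry a histone symbol. By name and textbook role the members were 5 linker H1 genes, 7 replication-dependent H2A genes, 9 replication-dependent H2B genes, 1 replication-dependent H3 gene, 2 replication-dependent H4 genes, 6 replication-independent variants and 5 germline histones. No filter on low values was applied, so all 35 entered the fit.

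Most core and linker histone genes lie in clusters and are transcribed mainly in S phase, when new DNA needs new nucleosomes. Their messages normally end in a stem-loop in place of a poly(A) tail, are bound there by the stem-loop binding protein, and are destroyed when DNA synthesis stops. Replication-independent variants such as H2A.Z, macroH2A and H1.10 are made from polyadenylated messages through the cell cycle and in cells that have stopped dividing. A few clustered genes, HIST1H2BD, HIST1H2AC, HIST1H2BK and HIST1H1C among them, are known to make polyadenylated transcripts as well, and the H2A.X message exists in both forms.

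The RNA came from U937, an established human cell line of monocytic character, derived from a histiocytic lymphoma. The PBD150 plus LPS group received PBD150, an inhibitor of the enzyme glutaminyl cyclase, at 10 µM for 2 h before lipopolysaccharide (LPS, a bacterial cell wall component that activates monocytes and macrophages) at 4 µg/ml. The LPS group received LPS at the same dose alone, the third group was untreated, and culture lasted 48 h in all of them. Each group held 3 biological replicates read on 3 technical arrays each, 27 one-colour arrays in all. No group with PBD150 alone was analysed here, the cells of every group were of 1 line, and the labels call them macrophages without naming a differentiating agent. The series title places the study at the effect of glutaminyl cyclase activity on macrophage gene expression in inflammation.

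Levels are log2 of quantile-normalised intensity, averaged over the 3 arrays of a culture, and a difference is a difference of group means on that scale. Intensities compare 1 probe between cultures, and levels of different genes were not compared. Where the intensities of a list were summed, its brightest probes weigh most, and a sum was set only beside the same sum in other cultures. A value was called above noise where its deposited intensity was over 3 times the spread (root mean square) of the negative values on the same array, a limit of 12.9 to 18.7 intensity units, or 3.72 to 4.39 on the normalised log2 scale. Between 69.0% and 77.8% of all probes passed it on an array. The deposited median intensity of an array lay between 41.5 and 100.3, and untreated culture 1 stood apart with medians of 41.5 to 46.8. The number of cultures limits the precision, and p-values measure the spread between these cultures. Fewer cells of a kind and less RNA per cell cannot be told apart in such bulk RNA.

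Myelomonocytic markers were read for 9 of the 10 listed genes, and CD33, LYZ, MPO and SPI1 were above noise on all arrays. With PBD150 plus LPS 4 of the 9 rose and with LPS 3 did, and 3 of the 9 lay below 0 in each comparison without passing. CD14, ITGAM and CSF1R rose in both treated groups and CSF3R passed with PBD150 plus LPS. CD14 averaged 15.93 in PBD150 plus LPS cultures, 15.86 in LPS cultures and 8.95 in untreated cultures. Of markers of other cell types, 1 of 6 T or NK lymphocyte genes rose in each treated group (CD2). Among 3 measured B lymphocyte genes CD79A fell in both treated groups, and MS4A1 rose with LPS and did not pass with PBD150 plus LPS. EPCAM, 1 of 3 measured genes of fibroblasts or epithelium, rose in both. The summed normalised intensity of the T or NK list was 2425 to 3733 in PBD150 plus LPS cultures, 2659 to 5193 in LPS cultures and 2389 to 2737 in untreated cultures. The B list summed to 514 to 625 in PBD150 plus LPS, 547 to 774 in LPS and 1071 to 1139 in untreated cultures, and the fibroblast or epithelium list to 632 to 788, 512 to 776 and 386 to 458. No marker measured was at 0 in every group, no listed erythroid gene was analysed here, and the part of these signals in the histone differences was not tested.

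Of the 35 histone genes, 20 were above noise on every array of the PBD150 plus LPS group, 19 on every LPS array and 19 on every untreated array. Over all 27 arrays 17 were above noise throughout, 17 on some arrays and 1, HIST1H2BB, on none. The highest histone intensity was 21888, and 0 members reached the top of an array's range. Cultures within a treated group differed more than untreated ones did: the median SD of a histone gene was 0.352 with PBD150 plus LPS, 0.344 with LPS and 0.129 untreated, against 0.333, 0.348 and 0.153 over all genes.

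The histone genes split in both treated groups rather than moving together. With PBD150 plus LPS against untreated cells 5 of 35 rose and 7 fell by limma's test (Benjamini-Hochberg adjusted p under 0.05 over 30968 probes), where 15.3% of all genes rose, 17.9% fell and 33.2% changed either way. With LPS against untreated cells 4 rose and 5 fell, where 13.6% of all genes rose, 15.4% fell and 29% changed either way. The count of changed members was near the share of all genes in each comparison. The calls were few within a class: the 3 among H2B genes were rises, the 2 among variants were falls, and H2A genes went both ways. Among the H2B calls, those of HIST1H2BK, and of HIST2H2BA with LPS, were lost under some alternative analyses. Of the variants that fell, H2AFX has a second probe that passed in neither comparison. The median difference of the 35 was 0.32 with PBD150 plus LPS and 0.032 with LPS, against 0.057 and 0.046 over all genes. Both comparisons use the same untreated arrays, so their likeness is not independent. Cultures did not overlap with untreated ones for 13 members above and 8 below in PBD150 plus LPS, where 26.9% and 27.1% of all genes did so, and for 7 above and 8 below in LPS, where 25.8% and 24.7% did.

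**Figure D1:**
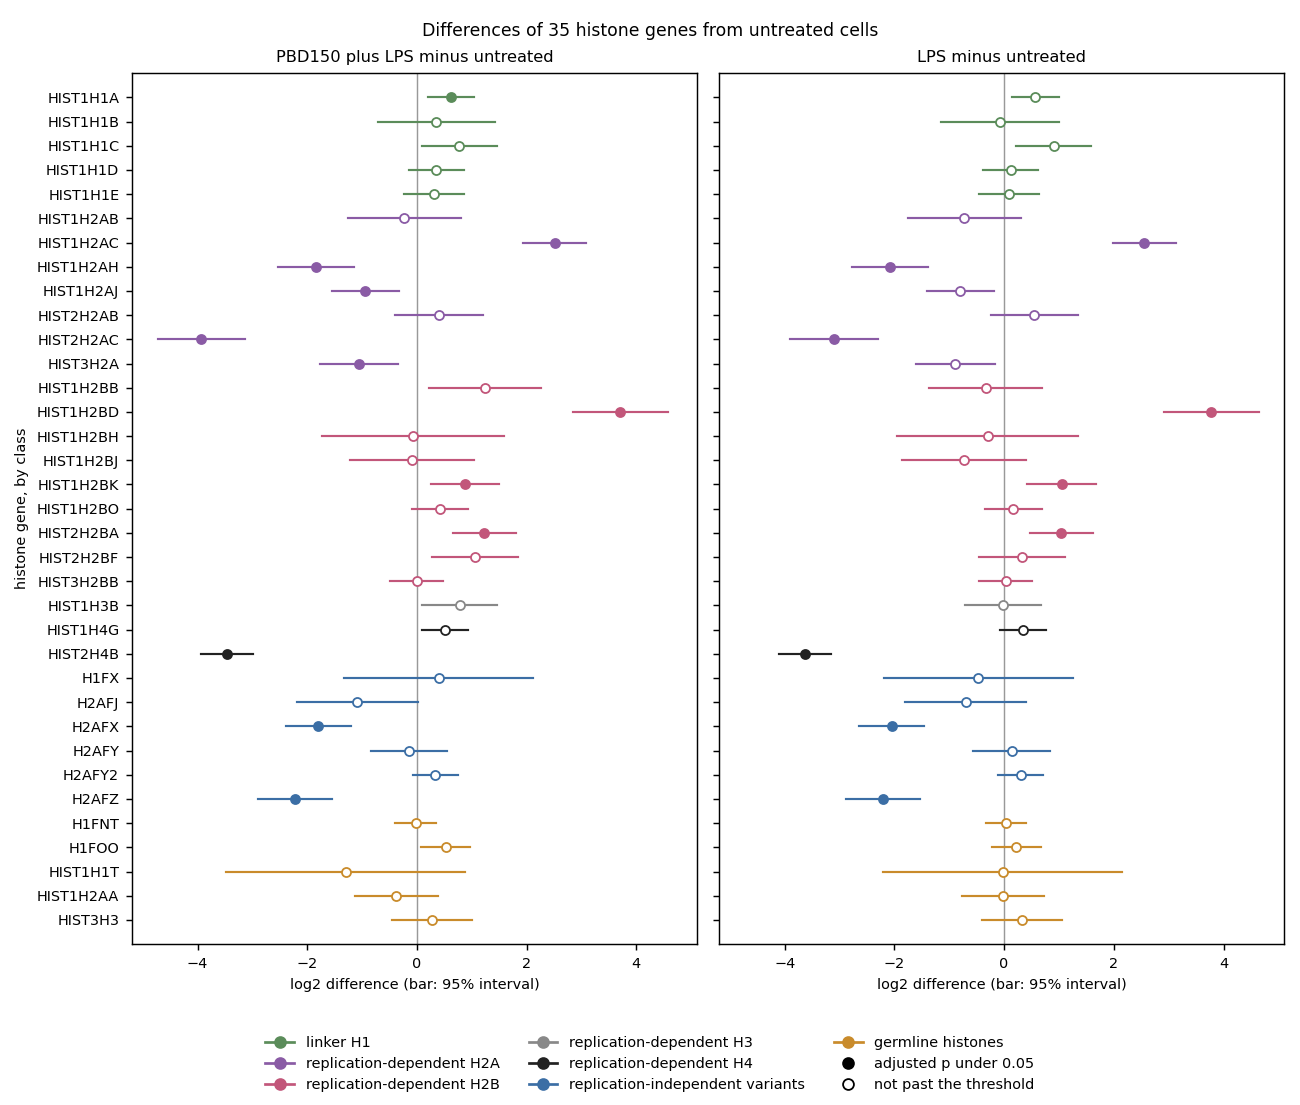
Log2 differences of the 35 histone genes from untreated cells (x axis), by gene and class (y axis), for PBD150 plus LPS on the left and LPS on the right. Points are differences of group means (3 cultures each), bars are 95% intervals, filled points passed the adjusted p threshold. HIST1H2BD and HIST1H2AC lie farthest to the right and HIST2H4B and HIST2H2AC farthest to the left in both panels.

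Core H2B genes held the largest rise. HIST1H2BD (current symbol H2BC5, chromosome 6) read 9.98, 10.77 and 10.63 in PBD150 plus LPS cultures, 11.35, 10.34 and 9.91 in LPS cultures, and 6.77, 6.96 and 6.54 in untreated cultures. All 6 treated cultures lay well above the 3 untreated ones, and the treated groups overlapped. The difference from untreated cells was 3.71 ± 0.38 (SE, 3 cultures a group) with PBD150 plus LPS, 13.1-fold (limma, adjusted p = 0.00023). With LPS it was 3.78 ± 0.38, 13.7-fold (limma, adjusted p = 0.000257). HIST1H2BD kept both calls under all 18 alternative analyses.

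HIST1H2BK (H2BC12), the second of the H2B genes known for polyadenylated transcripts, read 8.93, 9.49 and 9.90 in PBD150 plus LPS cultures, 9.90, 9.66 and 9.28 in LPS cultures and 8.53, 8.57 and 8.58 in untreated cultures. The untreated cultures were nearly level and the treated ones all lay above them. Its difference was 0.88 ± 0.27 with PBD150 plus LPS (limma, adjusted p = 0.0461) and 1.05 ± 0.27 with LPS (limma, adjusted p = 0.0257). The PBD150 plus LPS call was lost under 9 of the 18 alternatives, including those without any 1 of the untreated cultures, LPS culture 2 or PBD150 plus LPS culture 2 or 3 (0.65 to 0.89). The LPS call was lost under 7, including those without any 1 of the untreated cultures or LPS culture 1 or 2 (0.91 to 1.06). HIST2H2BA, listed by RefSeq under the pseudogene symbol H2BP1 on chromosome 1, read 8.28, 8.12 and 8.47 in PBD150 plus LPS, 7.72, 8.40 and 8.18 in LPS, and 7.18, 7.32 and 6.68 in untreated cultures. It rose by 1.23 ± 0.25 with PBD150 plus LPS (limma, adjusted p = 0.00768) and by 1.04 ± 0.25 with LPS (limma, adjusted p = 0.0188). The LPS call was lost under 4 alternatives, among them without untreated culture 3 or LPS culture 2 or 3 (0.85 to 1.00). The other 6 H2B genes, HIST1H2BB, HIST1H2BH, HIST1H2BJ, HIST1H2BO, HIST2H2BF and HIST3H2BB, passed in neither comparison. HIST1H2BB was above noise on no array, so no size is given for it. The differences of the others lay between -0.089 and 1.06 with PBD150 plus LPS and between -0.73 and 0.33 with LPS. Among these, HIST1H2BH was above noise on 0 PBD150 plus LPS, 1 LPS and 2 untreated arrays. HIST2H2BF, which gave the upper end of both ranges, was above noise on 7 PBD150 plus LPS, 4 LPS and 4 untreated arrays. Its LPS and untreated means of 3.97 and 3.64 lay at or under the noise limits. H2B genes are close in sequence, so a probe named for one may also have bound messages of another.

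Among core H2A genes the members went opposite ways. HIST1H2AC (H2AC6, chromosome 6) read 7.54, 7.44 and 8.30 in PBD150 plus LPS cultures, 7.71, 7.94 and 7.74 in LPS cultures and 5.07, 5.33 and 5.34 in untreated cultures. Every treated culture was above every untreated one. It rose by 2.52 ± 0.25 with PBD150 plus LPS (limma, adjusted p = 0.00021) and by 2.55 ± 0.25 with LPS (limma, adjusted p = 0.000241).

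HIST2H2AC (H2AC20, chromosome 1) read 2.04, 2.20 and 2.71 in PBD150 plus LPS cultures, 3.93, 2.86 and 2.65 in LPS cultures and 6.05, 6.40 and 6.30 in untreated cultures. It was above noise on 0 of 9 PBD150 plus LPS arrays, 3 of 9 LPS arrays and 9 of 9 untreated arrays, so the treated values sit at or under what an array can resolve. Its level was at least 4.48-fold lower with PBD150 plus LPS than in untreated cells, a bound set by the lowest signals above noise (limma, adjusted p = 0.000125), with means of 2.32 and 6.25. With LPS the means were 3.15 in LPS cultures and 6.25 in untreated cultures (limma, adjusted p = 0.000436), and since the LPS mean lies under the noise limits no size is read from that difference. The second probe of the gene was above noise on 0 PBD150 plus LPS, 0 LPS and 4 untreated arrays, and nothing is drawn from it.

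HIST1H2AH (H2AC12) read 4.31, 3.72 and 5.0 in PBD150 plus LPS, 4.11, 3.94 and 4.29 in LPS, and 6.16, 6.21 and 6.20 in untreated cultures. The untreated cultures were tightly grouped above all treated ones, and 7 PBD150 plus LPS and 6 LPS arrays of 9 were above noise. The difference was -1.85 ± 0.30 with PBD150 plus LPS (limma, adjusted p = 0.00259) and -2.08 ± 0.30 with LPS (limma, adjusted p = 0.00164). Its treated means of 4.34 and 4.11 lay within the noise limits, so these sizes describe the readings and not the message level. HIST1H2AJ and HIST3H2A fell with PBD150 plus LPS, and their values with LPS lay close to the threshold. HIST1H2AJ read 4.28, 4.30 and 3.57 in PBD150 plus LPS, 4.46, 4.18 and 3.95 in LPS, and 4.77, 4.90 and 5.30 in untreated cultures, with a difference of -0.95 ± 0.27 with PBD150 plus LPS (limma, adjusted p = 0.032) and -0.80 ± 0.27 with LPS (limma, adjusted p = 0.0666). HIST3H2A read 4.91, 3.88 and 3.98 in PBD150 plus LPS, 4.15, 4.87 and 4.25 in LPS, and 5.31, 5.37 and 5.25 in untreated cultures, with -1.05 ± 0.31 (limma, adjusted p = 0.0378) and -0.89 ± 0.31 (limma, adjusted p = 0.0768). Both were near the noise limit in treated cells. The HIST1H2AJ call was lost under 7 of the 18 alternatives, including those without any 1 of the untreated cultures or PBD150 plus LPS culture 3 (-1.06 to -0.71). The HIST3H2A call was lost under 8, including those without any 1 of the untreated cultures, LPS culture 3 or PBD150 plus LPS culture 2 or 3 (-1.08 to -0.87). HIST1H2AB and HIST2H2AB did not pass in either comparison.

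**Figure D2:**
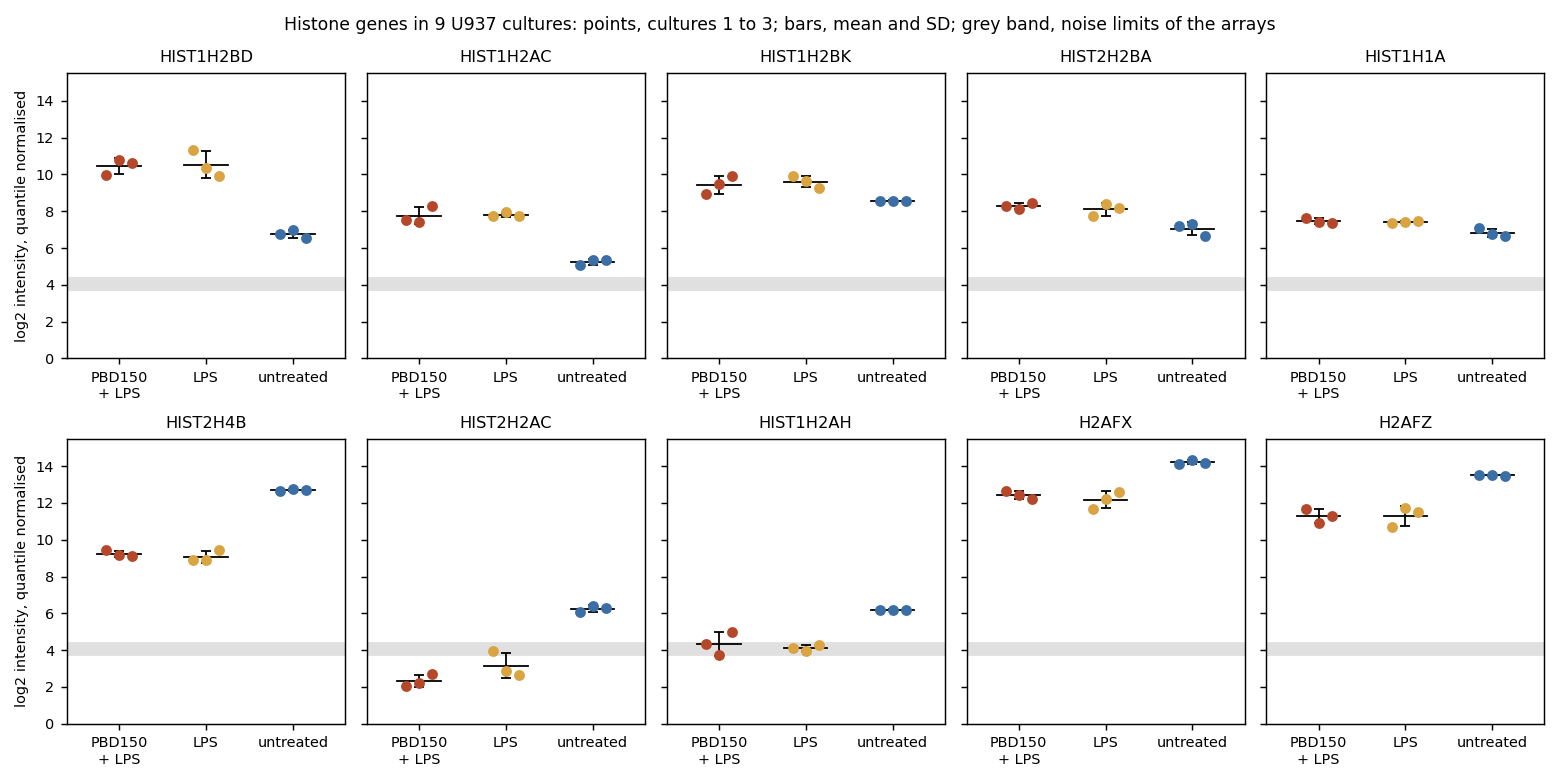
Log2 intensity (y axis) of 10 histone genes in the 9 cultures, grouped on the x axis as PBD150 plus LPS, LPS and untreated. Points are cultures 1 to 3, lines and bars are mean and SD, and the grey band spans the arrays' noise limits of 3.72 to 4.39; the top row holds genes that rose in at least 1 treated group and the bottom row genes that fell in both, and HIST2H2AC falls to or below the band.

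The largest fall among well-detected members was that of an H4 gene. HIST2H4B (H4C15, chromosome 1) read 9.42, 9.17 and 9.12 in PBD150 plus LPS cultures, 8.88, 8.90 and 9.44 in LPS cultures and 12.63, 12.75 and 12.71 in untreated cultures. The groups were far apart, with the treated cultures all above noise. The difference was -3.46 ± 0.21 with PBD150 plus LPS (limma, adjusted p = 2.16e-05) and -3.62 ± 0.21 with LPS (limma, adjusted p = 2.15e-05). The gene's second probe averaged 4.21 in PBD150 plus LPS, 3.16 in LPS and 8.33 in untreated cultures and passed in both comparisons (limma, adjusted p = 0.000212 and 9.54e-05). It was above noise on 7, 2 and 9 of the 9 arrays of these groups, so no size is given for its differences. HIST2H4B has a near-identical copy, HIST2H4A, and the signal cannot be assigned to one of them. HIST1H4G, an H4 gene that diverges from the others in sequence, did not pass: its difference was 0.51 with PBD150 plus LPS and 0.35 with LPS. The single H3 member, HIST1H3B, differed by 0.78 with PBD150 plus LPS (limma, adjusted p = 0.0933) and by -0.017 with LPS. HIST1H3B was above noise on 8 PBD150 plus LPS, 6 LPS and 6 untreated arrays of 9. Its LPS and untreated means of 4.18 and 4.20 lay within the noise limits, so these differences describe the readings and not the message level.

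Linker H1 proteins bind the DNA that enters and leaves the nucleosome. HIST1H1A (H1-1) read 7.64, 7.39 and 7.34 in PBD150 plus LPS cultures, 7.37, 7.40 and 7.44 in LPS cultures and 7.07, 6.78 and 6.65 in untreated cultures. It rose by 0.62 ± 0.19 with PBD150 plus LPS (limma, adjusted p = 0.0381) and differed by 0.57 ± 0.19 with LPS (limma, adjusted p = 0.0584). Its call was lost under 9 alternatives, including those without untreated culture 2 or 3, LPS culture 2 or 3, or PBD150 plus LPS culture 1 or 2 (0.53 to 0.66). HIST1H1C (H1-2), a linker gene with polyadenylated transcripts, read 8.36, 8.72 and 8.58 in PBD150 plus LPS, 9.37, 8.55 and 8.13 in LPS, and 7.83, 7.77 and 7.74 in untreated cultures. All treated cultures were above the untreated ones, but the differences of 0.77 ± 0.30 (limma, adjusted p = 0.0934) and 0.91 ± 0.30 (limma, adjusted p = 0.0632) missed the threshold, and its second probe differed by 0.15 and 0.050. HIST1H1B, HIST1H1D and HIST1H1E differed by 0.32 to 0.36 with PBD150 plus LPS and by -0.076 to 0.12 with LPS, none past the threshold. Of these, HIST1H1B was near the noise limit, above it on 7 PBD150 plus LPS, 5 LPS and 6 untreated arrays. Its second probe was above noise on 0 arrays.

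Among replication-independent variants, H2A.Z and H2A.X fell. H2AFZ (H2AZ1, chromosome 4), which encodes H2A.Z of promoter-flanking nucleosomes, read 11.64, 10.90 and 11.29 in PBD150 plus LPS cultures, 10.70, 11.70 and 11.49 in LPS cultures and 13.52, 13.52 and 13.47 in untreated cultures. All treated cultures were far below the untreated ones. It fell by 2.22 ± 0.30 on the log2 scale with PBD150 plus LPS (limma, adjusted p = 0.000882) and by 2.20 ± 0.30 with LPS (limma, adjusted p = 0.00108). A second H2AFZ probe fell by 1.29 and by 1.16, both past the threshold.

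H2AFX (H2AX, chromosome 11), whose protein is phosphorylated around DNA breaks, read 12.64, 12.43 and 12.19 in PBD150 plus LPS cultures, 11.69, 12.19 and 12.62 in LPS cultures and 14.14, 14.33 and 14.18 in untreated cultures. The difference was -1.80 ± 0.26 with PBD150 plus LPS (limma, adjusted p = 0.00128) and -2.05 ± 0.26 with LPS (limma, adjusted p = 0.000775). The probes of H2AFX disagreed: the dimmer one differed by -0.034 and -0.37, passing in neither comparison although above noise on all arrays. Probe sequences were not used here, so which form of the message each probe reads is not known.

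The macroH2A genes, whose products carry a large extra domain and mark silent chromatin, did not pass. H2AFY (MACROH2A1) read 12.50, 12.80 and 13.43 in PBD150 plus LPS, 13.73, 12.97 and 12.87 in LPS, and 12.97, 13.13 and 13.07 in untreated cultures, with overlapping groups. Its differences were -0.15 ± 0.31 with PBD150 plus LPS and 0.14 ± 0.31 with LPS. Its dimmer probe differed by -0.64 and -0.97, and the value with LPS passed (limma, adjusted p = 0.018). H2AFY2 (MACROH2A2) read 8.58, 8.52 and 8.31 in PBD150 plus LPS, 8.24, 8.53 and 8.55 in LPS, and 8.02, 8.25 and 8.13 in untreated cultures. Its differences were 0.33 ± 0.18 and 0.31 ± 0.18, and the PBD150 plus LPS cultures all lay above the untreated ones. H2AFJ (H2AJ), an H2A variant known to accumulate in senescent human fibroblasts, read 1.85, 2.91 and 2.58 in PBD150 plus LPS, 2.20, 3.97 and 2.34 in LPS, and 3.30, 3.87 and 3.44 in untreated cultures. It was above noise on 2, 2 and 3 of the 9 arrays of these groups, so its level was hardly measured.

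H1FX (H1-10), a linker variant of dividing and resting cells, rested on 1 culture. It read 9.57, 9.39 and 9.68 in PBD150 plus LPS cultures, 6.53, 9.91 and 9.59 in LPS cultures and 9.12, 9.15 and 9.18 in untreated cultures. LPS culture 1 was low on each of its 3 technical arrays, at 6.43, 6.24 and 6.93. The difference with LPS was -0.47 ± 0.76 (limma, adjusted p = 0.709) and became 0.60 (limma, adjusted p = 0.0506) when that culture was left out, the lowest adjusted p over its alternatives (0.0506 to 0.869). With PBD150 plus LPS it was 0.40 ± 0.76 (limma, adjusted p = 0.743). That SE and p-value use a spread shared by all groups, so LPS culture 1 widens them although it is not compared. Within the compared groups the SD was 0.14 (PBD150 plus LPS) and 0.031 (untreated), and the PBD150 plus LPS cultures all lay above the untreated ones.

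**Figure D3:**
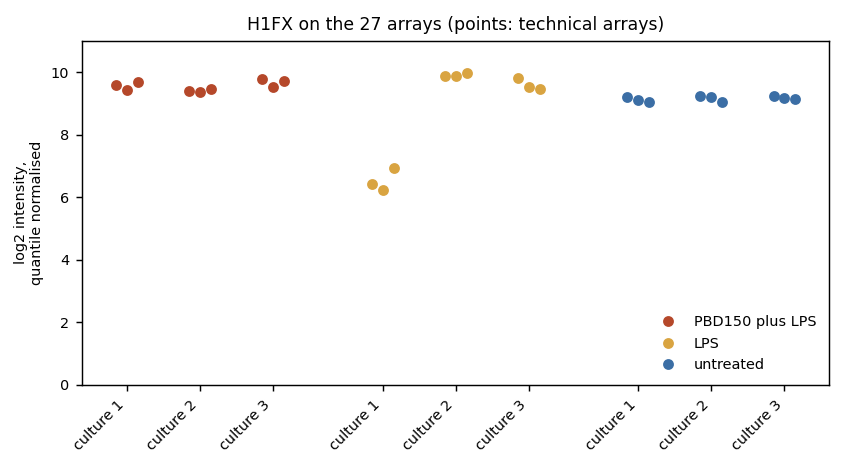
Log2 intensity of H1FX (y axis) on the 27 arrays, by group and culture (x axis), each point a technical array. The 3 arrays of LPS culture 1 lie between 6.24 and 6.93, below all the others.

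Germline histones are known from testis and oocytes. H1FNT, a spermatid linker histone, was above noise on all 27 arrays, and its cultures spanned 8.51 to 8.60 in PBD150 plus LPS, 8.46 to 8.72 in LPS and 8.48 to 8.63 in untreated cells. H1FOO of oocytes was above noise on 26 arrays, HIST3H3 on 14, HIST1H2AA on 8 and HIST1H1T on 3, and these last are genes of the testis. None of the 5 passed in any comparison.

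By class, the median difference of linker genes was 0.36 with PBD150 plus LPS and 0.12 with LPS, that of H2A genes -0.95 and -0.80, and that of H2B genes 0.88 and 0.17. The H2A medians are the values of HIST1H2AJ, near the noise limit in treated cells. The H2B median with PBD150 plus LPS is the value of HIST1H2BK. Class medians take in members near or under noise, among them HIST2H2AC in treated cells and HIST1H2BB. The variants had medians of -0.62 and -0.59 and the germline genes of -0.023 and 0.032, beside 0.057 and 0.046 over all genes. The linker median with LPS turned to -0.033 without LPS culture 3, and that of variants with LPS ranged from -1.18 without LPS culture 2 to -0.26 without LPS culture 1. With PBD150 plus LPS the variants' median was -0.36 without PBD150 plus LPS culture 1. Over the 19 replication-dependent core genes 4 rose and 5 fell with PBD150 plus LPS, where 15.3% and 17.9% of all genes did. With LPS 4 rose and 3 fell, where 13.6% and 15.4% of all genes did.

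Among genes that make or carry histones, those past the threshold were all lower in treated cells, while 17.9% of all genes fell with PBD150 plus LPS and 15.4% with LPS. Of 15 measured genes for transcription and 3′ processing of histone messages, 0 rose and 8 fell with PBD150 plus LPS, and 0 rose and 7 fell with LPS. The median difference was -0.59 with PBD150 plus LPS and -0.46 with LPS, and 3 and 2 of the 15 lay above 0 without passing. SLBP, the stem-loop binding protein, averaged 6.94 in PBD150 plus LPS, 7.02 in LPS and 8.61 in untreated cultures, a difference of -1.68 ± 0.21 with PBD150 plus LPS (limma, adjusted p = 0.000696) and -1.59 ± 0.21 with LPS (limma, adjusted p = 0.00106). ERI1, the exonuclease that trims the stem-loop end, differed by -2.33 ± 0.25 and -2.06 ± 0.25, and CCNE1 and CCNE2, the cyclins of S-phase entry, by -3.29 and -2.93 with PBD150 plus LPS and -3.09 and -2.81 with LPS. ZNF473, of the histone message processing complex, and CPSF2, a subunit of its cleavage factor, fell in both comparisons by 0.92 to 1.46.

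Of 19 measured histone chaperones and deposition factors, 0 rose and 14 fell in each comparison (17.9% and 15.4% of all genes fell), or 9 with PBD150 plus LPS when untreated culture 1 or PBD150 plus LPS culture 1 was left out, with median differences of -1.60 with PBD150 plus LPS and -1.72 with LPS. NASP, a chaperone of H1 and of H3 with H4, averaged 9.89 in PBD150 plus LPS, 10.22 in LPS and 13.32 in untreated cultures, a difference of -3.43 ± 0.18 (limma, adjusted p = 1.17e-05) and -3.11 ± 0.18 (limma, adjusted p = 2.18e-05). MCM2, a helicase subunit that also binds H3 with H4, differed by -3.82 and -3.14. CENPA, the centromeric H3 variant, differed by -2.70 and -2.30, and SSRP1, of the FACT chaperone, by -1.92 and -1.72. ASF1A, which hands H3 with H4 to deposition factors, differed by -2.54 and -2.12, and the importin IPO4 by -2.17 in both comparisons. None of these genes is a member of the histone list, and CENPA does not carry a histone symbol on the array.

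Of 14 measured S-phase markers, 0 rose and 12 fell in each comparison (17.9% and 15.4% of all genes fell), with median differences of -2.49 and -2.22. MKI67, a proliferation marker, differed by -2.51 ± 0.18 with PBD150 plus LPS (limma, adjusted p = 4.47e-05) and -2.54 ± 0.18 with LPS (limma, adjusted p = 5e-05). CDC45, a replication helicase factor, differed by -2.37 and -2.01, and TK1, thymidine kinase, by -2.48 and -2.33. The 2 others, CDC6 and MCM5, were above noise on 0 arrays, and they are named after their values were seen. The summed intensity of the S-phase list was 28752 to 34776 in PBD150 plus LPS cultures, 33100 to 46188 in LPS cultures and 120713 to 124386 in untreated cultures. It moved with the falls of HIST2H4B, HIST2H2AC, HIST1H2AH, H2AFZ and H2AFX and against the rises of HIST1H2BD and HIST1H2AC, and its part in these was not tested. The RNA was amplified with a kit that primes on poly(A) tails, which tail-less histone messages lack, and the part of message ends in these differences was not tested.

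**Figure D4:**
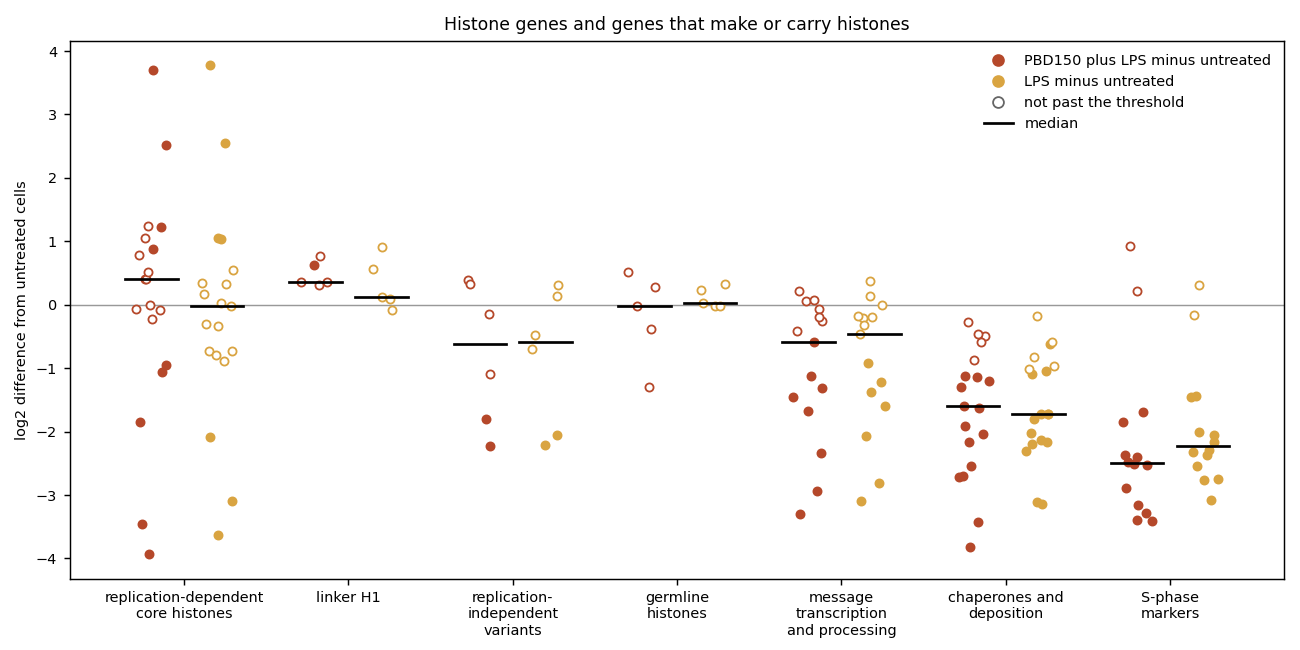
Log2 differences from untreated cells (y axis) for histone classes, lists of genes that make or carry histones, and S-phase markers (x axis). PBD150 plus LPS lies to the left of LPS within each. Each point is a gene, filled where adjusted p was under 0.05, and black lines are medians; core histones lie on both sides of 0 while the called genes of the 3 lists on the right all lie below 0.

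The promoters of members that moved are shown because their letters can be set beside these directions. The RefSeq windows (GRCh38.p14, 250 bases before the start, each on the gene's own strand) were available for 33 of the 35 members, not for HIST1H2AH and HIST2H2BA. Capitals mark exact matches on either strand to the CCAAT box (CCAAT), the TATA box (TATAAA), the octamer known from H2B promoters (ATTTGCAT) and 4 E2F-type sites (TTTCCCGC, TTTGGCGC, TTTCGCGC, TTTGCCGC); matches may overlap. The rising genes shown are HIST1H2BD at chr6:26157871-26158120 (+), HIST1H2AC at chr6:26123922-26124171 (+) and HIST1H2BK at chr6:27146859-27147108 (-). The falling genes are HIST2H2AC at chr1:149886668-149886917 (+), H2AFZ at chr4:99950276-99950525 (-) and HIST2H4B at chr1:149861160-149861409 (-).
HIST1H2BD: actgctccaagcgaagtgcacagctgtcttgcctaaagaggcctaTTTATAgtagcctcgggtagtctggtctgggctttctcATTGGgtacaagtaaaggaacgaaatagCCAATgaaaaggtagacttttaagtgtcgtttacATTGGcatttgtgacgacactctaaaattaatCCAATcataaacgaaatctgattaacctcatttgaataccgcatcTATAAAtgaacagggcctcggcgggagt
HIST1H2AC: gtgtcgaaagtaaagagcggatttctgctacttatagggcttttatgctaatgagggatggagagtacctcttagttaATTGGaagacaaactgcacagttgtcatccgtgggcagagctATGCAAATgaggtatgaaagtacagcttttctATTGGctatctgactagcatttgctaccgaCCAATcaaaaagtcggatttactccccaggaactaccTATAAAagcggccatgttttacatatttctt
HIST1H2BK: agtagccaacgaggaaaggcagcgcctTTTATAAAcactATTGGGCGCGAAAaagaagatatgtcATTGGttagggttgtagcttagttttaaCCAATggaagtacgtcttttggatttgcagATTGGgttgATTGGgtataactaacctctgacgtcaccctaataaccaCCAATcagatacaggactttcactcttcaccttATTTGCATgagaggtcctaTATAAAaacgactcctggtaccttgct
HIST2H2AC: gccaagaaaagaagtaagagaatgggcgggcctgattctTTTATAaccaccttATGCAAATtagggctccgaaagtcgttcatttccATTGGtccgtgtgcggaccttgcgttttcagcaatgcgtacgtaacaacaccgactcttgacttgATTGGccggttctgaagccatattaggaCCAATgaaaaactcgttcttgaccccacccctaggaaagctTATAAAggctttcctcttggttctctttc
H2AFZ: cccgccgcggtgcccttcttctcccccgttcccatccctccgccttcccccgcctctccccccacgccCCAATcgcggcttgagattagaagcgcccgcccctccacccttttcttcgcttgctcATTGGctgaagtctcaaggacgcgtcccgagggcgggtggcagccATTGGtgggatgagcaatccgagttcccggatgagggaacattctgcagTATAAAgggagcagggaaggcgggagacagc
HIST2H4B: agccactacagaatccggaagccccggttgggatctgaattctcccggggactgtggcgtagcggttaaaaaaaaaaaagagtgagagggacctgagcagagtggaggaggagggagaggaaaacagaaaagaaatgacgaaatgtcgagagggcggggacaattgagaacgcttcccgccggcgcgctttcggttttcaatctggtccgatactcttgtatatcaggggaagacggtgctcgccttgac

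CCAAT was found in 28 of 33 histone windows (84.85%), against 33.04% of 27305 genes' windows, and TATAAA in 20 (60.61%), against 11.13%. The octamer was found in 12 (36.36%), against 1.66%, and an E2F-type site in 5 (15.15%), against 2.79%. The same letters occurred before rising and before falling genes. HIST1H2AC and HIST1H2BK held 1 octamer each and HIST1H2BD held 0, while HIST2H2AC, which fell, held 1. HIST1H2BD held 4 CCAAT matches, HIST1H2BK 6, and H2AFZ and HIST2H2AC 3 each. HIST2H4B held none of the 4 motifs in this window, which says only that these letters are not there.

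Rising and falling members lay side by side in the HIST1 and HIST2 clusters. Of 19 members of the HIST1 cluster on chromosome 6, 4 rose and 2 fell with PBD150 plus LPS, and 3 rose and 1 fell with LPS, where 33.2% and 29% of all genes changed either way. These HIST1 counts are near or under the share of all genes. Of 5 members of the HIST2 cluster on chromosome 1, 1 rose and 2 fell in each comparison (33.2% and 29% of all genes changed either way). With 5 members this count is too small to be read against that share. The 1 that rose was HIST2H2BA, whose LPS call was lost under 4 alternatives. Of 3 members of the HIST3 cluster, 0 rose and 1 fell with PBD150 plus LPS, and 0 rose and 0 fell with LPS. HIST1H2AC and HIST1H2BD, which both rose, are separated in RefSeq by 1 gene, HIST1H1E, which did not pass. HIST1H2BK, which rose, and HIST1H2AH, which fell, are also separated by 1 gene.

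Whether PBD150 altered the histone response to LPS was asked by setting PBD150 plus LPS against LPS. By limma's test 0 of 35 members rose and 0 fell, as for all genes (0%), at an adjusted p under 0.05. At an unadjusted p under 0.05, 3 of 35 members passed, where 4.46% of all genes did. HIST1H2BD differed by -0.071 (95% interval -0.93 to 0.79) and HIST1H2AC by -0.038 (-0.61 to 0.54). HIST2H4B differed by 0.16 (-0.31 to 0.64) and H2AFZ by -0.019 (-0.70 to 0.66). A difference of 2-fold in either direction lay outside the interval for 23 of the 35 members, and for the other 12 these cultures do not exclude one. The 23 take in members near the noise limit in both treated groups. Examples are HIST3H3, above noise on 4 PBD150 plus LPS and 6 LPS arrays, and HIST1H2AJ, on 5 and 5. For such members the interval bounds the reading and not the message level.

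The smallest p among members was that of HIST1H2BB, which read 3.24, 2.04 and 2.47 in PBD150 plus LPS cultures, 1.22, 0.25 and 1.54 in LPS cultures and 1.23, 0.85 and 1.95 in untreated cultures, on no array above noise. No size is given for its difference, which did not pass (limma, adjusted p = 0.884), and its values lie below what the arrays resolve. HIST1H3B, a core H3 gene, read 5.17, 4.71 and 5.05 in PBD150 plus LPS, 3.86, 4.32 and 4.37 in LPS, and 3.65, 4.75 and 4.21 in untreated cultures. Its difference from LPS was 0.79 ± 0.30 (limma, adjusted p = 0.906). With 8 PBD150 plus LPS and 6 LPS arrays above noise and an LPS mean within the noise limits, that size describes the reading and not the message level. HIST2H2AC did not pass (limma, adjusted p = 0.906), with the treated values near or under noise. HIST2H2BF differed by 0.73 ± 0.34 and H1FOO by 0.30 ± 0.19, both with limma adjusted p = 0.906. HIST2H2BF was above noise on 7 PBD150 plus LPS and 4 LPS arrays, so its size is uncertain. HIST1H2BB and HIST1H3B were the members whose PBD150 plus LPS cultures all lay above the LPS cultures, and 0 lay below, where 3.27% and 4.47% of all genes did so.

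**Figure D5:**
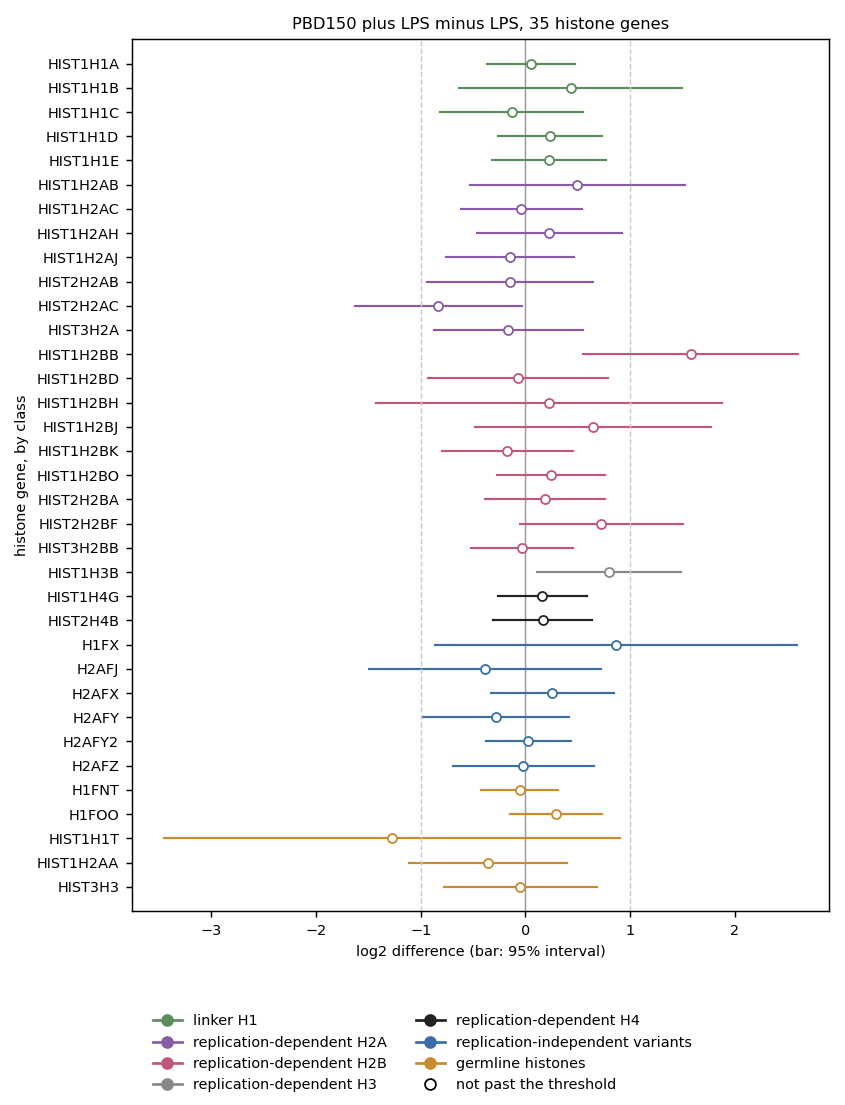
Log2 differences between PBD150 plus LPS and LPS (x axis) for the 35 histone genes by class (y axis), with 95% intervals; dashed lines mark 2-fold. No point is filled because 0 members passed the threshold, and HIST1H2BB, below noise on every array, is farthest to the right.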

How the data were processed

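RNA of 27 samples of U937 cells was amplified with MessageAmp and labelled with Cy5 and hybridised to Phalanx Human OneArray slides in 1 colour, per the labels' protocols. The deposited table holds linear intensity values, 1 per probe and array, some below 0; the authors' scanner, background correction and scaling are not given in the sources. No per-sample column was left unused (0).

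Intensities were floored at 1, log2 transformed, quantile normalised over 27 arrays and averaged over the 3 technical arrays of a culture. Technical arrays correlated at 0.919 to 0.944, cultures of a group at 0.903 to 0.945, and 0 pairs were identical. Tests were two-sided with limma 3.58.1 (R 4.3.3): a group-means model over 9 cultures, moderated variances, Benjamini-Hochberg adjustment over 30968 probes, threshold 0.05. The test was tested on simulated data. The platform table named 17397 probes with 1 symbol each (0 with several) and left 13571 without. RefSeq genes of GRCh38.p14 held 14670 of these symbols as current and 2645 as synonyms, those of all 35 members included, and 82 matched nothing. HILS1 and C3orf47, whose current symbols are histone ones, fall outside the name rule.

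Full values are given for members that passed, for all variants and for the 5 smallest p of PBD150 plus LPS against LPS, and list genes are named from the 6 smallest p of each list. Members and lists were chosen with earlier results of these data known. Alternatives were the normalisation, the floor, a filter on dim probes, array weights, a random block and the replicate block. Others were the mean over the probes of a gene in place of the brightest, only 2 groups, and each culture left out.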

Additional observations from a re-analysis of the deposited data

How the results depend on the processing

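Over 18 alternatives HIST1H2BD, HIST1H2AC, HIST2H4B, HIST2H2AC, HIST1H2AH, H2AFX and H2AFZ kept their calls in both comparisons with untreated cells. No called member changed sign, while 43 results not past the threshold did so at least once (94 times, 62 of them with a culture left out). Without normalisation the median of all genes was 0.25 with PBD150 plus LPS and 0.38 with LPS, and with median centring -0.073 and -0.097. Called histone genes higher with PBD150 plus LPS numbered 3 with median centring, 8 without dim probes (30 members left) and 9 with array weights, and 2 with LPS under median centring. Over all probes, PBD150 plus LPS had 6373 higher with array weights, LPS had 5935 higher and 2205 lower without normalisation and 5458 and 5552 with array weights, and with the random block 1 probe was higher and 13 were lower between the treated groups, with 0 of the 35 members among them. Class medians with PBD150 plus LPS were 0.60 (linker) and -0.70 (H2A) without normalisation, -0.57 (H2A) and 0.41 (H2B) with a pseudocount of 16, and -0.15 (variants) and 0.28 (germline) without dim probes. With LPS they were 0.54 (linker), -0.45 (H2A), 0.47 (H2B) and 0.37 (germline) without normalisation, -0.93 (H2A) with median centring and -0.46 (H2A) with the pseudocount. The cause was not tested. Leaving out each culture in turn gave 2597 to 5051 higher and 2964 to 4805 lower probes with PBD150 plus LPS and 2256 to 3724 and 2415 (without untreated culture 2) to 4160 with LPS; histone calls ranged from 3 to 7 higher and 5 to 8 lower with PBD150 plus LPS and from 2 to 4 and 5 to 6 with LPS. The lowest counts of rises came without untreated culture 3 or LPS culture 2 in both comparisons and, with PBD150 plus LPS, also without its culture 2. The class medians then ranged from 0.35 to 0.61 (linker) and -1.06 to -0.71 (H2A) with PBD150 plus LPS, from -1.04 to -0.69 (H2A), 0.072 to 0.53 (H2B) and -1.18 to -0.26 (variants) with LPS, and from -0.26 to 0.032 (H2A) between the treated groups. 

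Deviations of same-numbered cultures correlated at -0.0481 to 0.036 (PBD150 plus LPS with untreated) and -0.00116 to 0.00769 (LPS with untreated). For PBD150 plus LPS with LPS they correlated at -0.219 to -0.00597. PBD150 plus LPS culture 1 correlated at 0.182 with LPS culture 3, and PBD150 plus LPS culture 3 at 0.189 with LPS culture 1. The labels do not say what a replicate number shares, so these values cannot settle whether cultures were paired. With the replicate block 2895 probes were higher and 3433 lower for PBD150 plus LPS, 2508 and 2897 for LPS, and 0 and 0 between the treated groups, and 4 and 5, then 3 and 5, histone genes passed against untreated cells. Members near the noise limit, which 17 of 35 met on some arrays, are where these arrays resolve least.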
